A study of Mus musculus with 4 samples.

Results

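The genes described here encode antibody chains and partners of those chains in the B lineage. They were Ighm, Igha, Ighg2c, Igkc, Iglc2, Jchain, Mzb1, Cd79a and Cd79b, taken by symbol, and they made up 9 of the 32285 features of a spatial RNA experiment on mouse muscle. B cells carry an antibody on their surface as a receptor, and the membrane proteins CD79A and CD79B pass its signal into the cell. When a B cell matures into a plasma cell it secretes antibody, chain transcripts become very abundant, and the receptor genes are turned down. The heavy chain constant gene in use sets the isotype: Ighm gives IgM, Ighd IgD, Igha IgA and Ighg2c IgG2c. Each antibody also needs a light chain, either kappa (Igkc) or lambda (Iglc genes), and immune cells, including B and plasma cells, enter muscle after injury.

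Tibial muscle was taken from C57BL/6 mice aged 6 to 8 weeks that carried the Nse-Bmp4 transgene, in which a promoter of neuron-specific enolase drives Bmp4. The 4 fresh frozen sections were cut from muscle without injury (day 0) and from muscle 1, 3 and 7 days after cardiotoxin injury, with 1 section per day. The uninjured animals carried the transgene too, and no section from mice without it was used here. According to the labels, 3 tibial muscles went into each group, and which of these a section shows is not given. In all 4 sections the tissue label fitted its marker genes, since 12 adult myofibre genes (Acta1, Ckm and Myh4 among them) took 26.6% of all counts on day 0, 14.6% on day 1, 8.71% on day 3 and 15.4% on day 7.

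RNA was captured on an array of spots, each of which can hold several cells, and was counted as UMIs (unique molecular identifiers, which count a captured molecule a single time). The sections held 2107 to 3032 spots and between 16777832 UMIs (day 1) and 56113066 UMIs (day 3), and the median depth of a spot ran from 6322 UMIs on day 1 to 21029 on day 0. Levels are given as CPM, a gene's UMIs scaled to a section total of 1000000 UMIs, with exact Poisson intervals at 95% in parentheses. Ratios carry exact conditional intervals and shares exact Clopper-Pearson intervals, also at 95%. These intervals cover counting error only and none covers the spread between animals, so no test between days was possible and no p-value is given. They also treat UMIs as independent, so for chain UMIs that lay together in a few spots they can be too narrow even within a section. For folds, counts under 3 UMIs were raised to 3, except that plain ratios are printed where day 0 had a single UMI.

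All 9 genes were matched in the RefSeq table of mouse build GRCm38.p6 (mm10). Ighm (ENSMUSG00000076617, chr12:113418826-113422730), Igha (ENSMUSG00000095079, chr12:113256204-113260236) and Ighg2c (ENSMUSG00000076612, chr12:113287389-113288932) lay in the heavy chain cluster. Igkc (ENSMUSG00000076609) lay at chr6:70726435-70726754 and Iglc2 (ENSMUSG00000076937) at chr16:19198536-19198852. RefSeq gave these 5 the biotype of a constant region segment. The other 4 were protein coding genes: Jchain (ENSMUSG00000067149, chr5:88519809-88527897), Mzb1 (ENSMUSG00000024353, chr18:35647265-35650266), Cd79a (ENSMUSG00000003379, chr7:24897497-24901858) and Cd79b (ENSMUSG00000040592, chr11:106311341-106314562).

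Of the 9 genes, 2 had a promoter window in the RefSeq sequences at hand. Jchain encodes the joining chain of secreted IgA and IgM, and Cd79a a subunit of the membrane receptor. Both windows run 5′ to 3′ on the strand of the gene from 250 bases before to 50 bases after the annotated start, in build GRCm38.p6. The window of Jchain was chr5:88527848-88528147 on the minus strand, that of Cd79a chr7:24897247-24897546 on the plus strand, and capitals mark an E-box (CAGGTG, or CACCTG on the other strand).

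Jchain promoter: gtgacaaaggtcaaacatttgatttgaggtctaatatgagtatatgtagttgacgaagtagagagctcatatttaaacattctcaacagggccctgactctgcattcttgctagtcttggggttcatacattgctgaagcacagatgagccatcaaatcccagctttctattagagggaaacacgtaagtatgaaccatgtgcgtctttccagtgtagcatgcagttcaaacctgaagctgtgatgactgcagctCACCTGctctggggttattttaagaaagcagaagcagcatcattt

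Cd79a promoter: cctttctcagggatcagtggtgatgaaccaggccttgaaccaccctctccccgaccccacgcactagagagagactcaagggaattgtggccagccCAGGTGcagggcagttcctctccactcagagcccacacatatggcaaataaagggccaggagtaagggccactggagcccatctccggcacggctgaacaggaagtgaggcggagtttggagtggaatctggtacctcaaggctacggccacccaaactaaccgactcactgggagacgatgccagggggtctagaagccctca

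Each window held 1 E-box, which began 6 bases into the transcript in Jchain and 154 bases before the start in Cd79a. On either strand, CAGGTG occurred in 20.2% of 32851 mouse promoter windows of this length. The ETS core AGGAAG occurred in 35.4% of windows, with 1 match in Cd79a and 0 in Jchain. Neither window held the octamer ATGCAAAT, present in 1.74% of all windows, or the EBF core CCCNNGGG, present in 13.7%. The searched motifs did not overlap one another in either window, and a match describes letters and not a bound site.

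Compared with uninjured muscle, Igha and Igkc were far higher in each injured section, Ighg2c and Iglc2 were highest on day 7, and Ighm already had 1742 UMIs before injury. Jchain was higher in each injured section too, Cd79b was highest on day 3, and Cd79a stayed at 19 UMIs or fewer in every section. Mzb1 was lower on day 3 than on day 0. In a section, fewer cells of a type and less RNA per cell cannot be told apart.

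A gene was counted as higher or lower than day 0 when its CPM ratio passed 2-fold, with at least 3 UMIs on the higher side. At day 1, 7 of the 9 genes were higher (of 17250 genes tested, 17.3% were) and 0 were lower (9.93%), Ighm and Mzb1 being neither. At day 3, 5 were higher (31.9% of all genes) and 1, Mzb1, was lower (8.53%). At day 7, 7 were higher (32.0% of all genes) and 0 lower (2.13%), and Ighm and Mzb1 were again neither. The median log2 ratio of the 9 genes was 1.80, 2.34 and 4.08 on days 1, 3 and 7, beside 0.27, 0.55 and 0.64 over all genes tested. The 1.80 of day 1 was the ratio of Ighg2c, with 4 UMIs against 1 UMI raised to the floor of 3. Cd79a counted as higher on day 1 with 7 UMIs against 8 in the larger total of day 0, and the interval of its ratio (0.706 to 7.22) included 1. Scaling by TMM in place of CPM lowered every log2 ratio by 0.21, 0.55 and 0.61 at these days, and scaling by DESeq2 size factors by 0.19, 0.56 and 0.63. With TMM factors Cd79a on day 1 (log2 ratio 0.99) and day 7 (0.71) and Cd79b on day 7 (0.97) were no longer past 2-fold, while Ighm on day 3 (-1.38) and Mzb1 on day 7 (-1.02) came to lie past 2-fold lower. The log2 ratios of Cd79a on day 3 (0.10 by CPM), of Iglc2 on day 3 (0.38 against the floor) and of Ighm on day 7 turned negative.

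**Figure D1:**
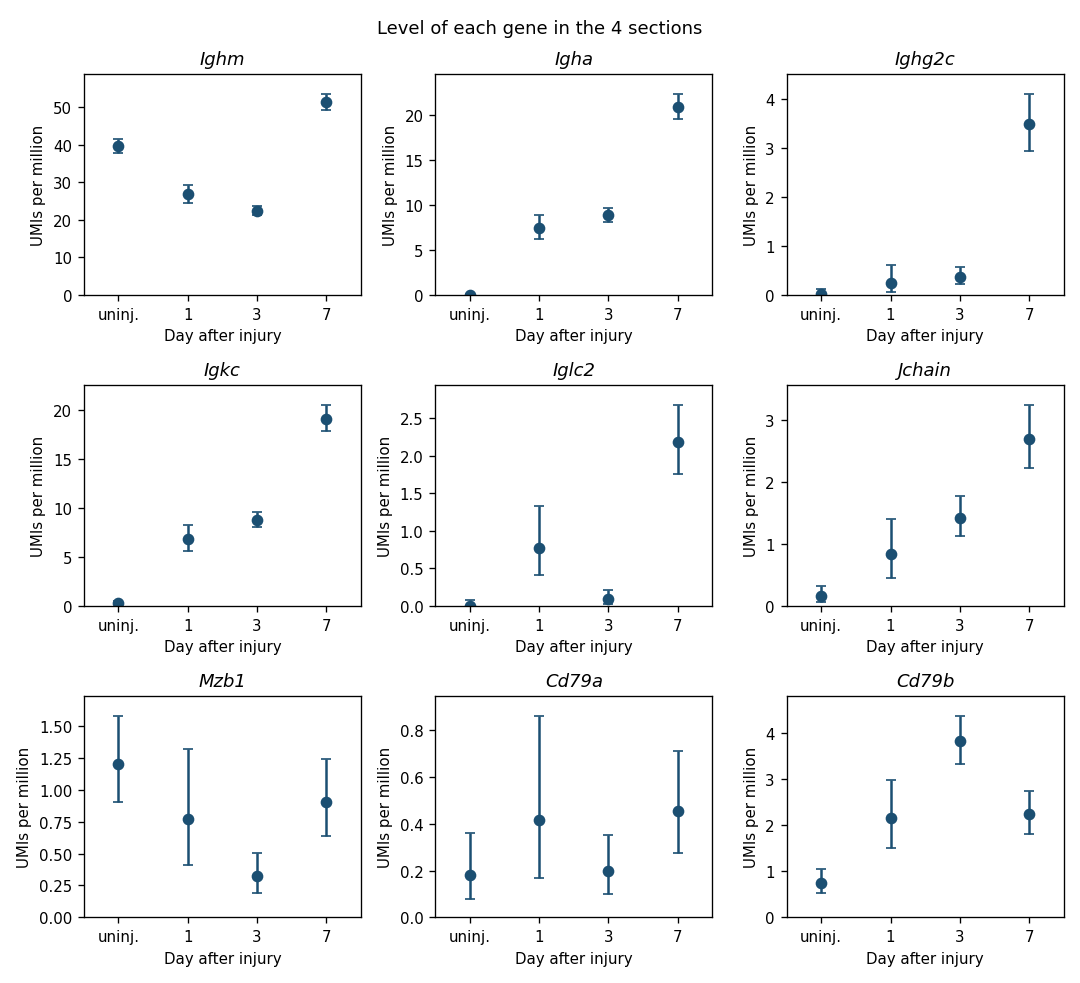
Level of each of the 9 genes in CPM (UMIs scaled to a section total of 1000000, linear axes from 0 with a scale for each gene) in the uninjured section and on days 1, 3 and 7, with exact 95% Poisson intervals as bars. Igha ran from 0.0228 CPM on day 0 to 20.9 on day 7 and Igkc from 0.342 to 19.1, while Ighm lay between 22.4 and 51.3 and Cd79a between 0.182 and 0.454.

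Among heavy chains, Ighm, the constant gene of IgM, had 1742 UMIs on day 0, 449 on day 1, 1256 on day 3 and 2146 on day 7. Its levels were 39.7 CPM (37.9 to 41.6), 26.8 (24.3 to 29.4), 22.4 (21.2 to 23.7) and 51.3 (49.2 to 53.5). The 4 intervals did not overlap, with day 3 lowest and day 7 highest. The log2 ratio to day 0 was -0.57 on day 1, -0.83 on day 3 and 0.37 on day 7, but on day 7 it was -0.24 with TMM factors and -0.27 with DESeq2 size factors, so the direction on day 7 depended on the scaling.

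Igha, the constant gene of IgA, the main antibody of mucosal surfaces, had 1, 124, 498 and 873 UMIs on days 0, 1, 3 and 7. These were 0.0228 CPM (0.000577 to 0.127), 7.39 (6.15 to 8.81), 8.87 (8.11 to 9.69) and 20.9 (19.5 to 22.3). Days 1 and 3 overlapped, and day 7 stood above both, at 2.35-fold the level of day 3 (2.10 to 2.63). The single UMI on day 0 left the ratios to day 0 wide: 324-fold on day 1 (57.1 to 12909), 389-fold on day 3 (69.6 to 15409) and 916-fold on day 7 (164 to 36203).

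Ighg2c, an IgG constant gene of C57BL/6 mice, had 1, 4, 21 and 146 UMIs, or 0.0228, 0.238 (0.0650 to 0.610), 0.374 (0.232 to 0.572) and 3.49 CPM (2.95 to 4.10). Day 7 was 9.33-fold above day 3 (5.88 to 15.5), while the difference between days 3 and 1 was within counting error, at 1.57-fold (0.530 to 6.29). IgG constant genes share long stretches of sequence, so reads may have been assigned unevenly among them. Ighg1, Ighg2b, Ighg3 and Ighe were at 0 UMIs in all 4 sections, for which the exact intervals reach up to 0.0841, 0.220, 0.0657 and 0.0882 CPM on days 0, 1, 3 and 7. Ighd, the constant gene of IgD of naive B cells, had 20, 2, 5 and 10 UMIs.

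Of all heavy chain UMIs (1764, 579, 1780 and 3175 in the 4 sections), Ighm took 98.8% on day 0, 77.5% on day 1, 70.6% on day 3 and 67.6% on day 7. The share of Igha was 0.0567% on day 0, 21.4% (18.1 to 25.0) on day 1, 28.0% (25.9 to 30.1) on day 3 and 27.5% (25.9 to 29.1) on day 7. Without the 10 spots of each section with the most immunoglobulin UMIs it was 11%, 12.9% and 14.8% on days 1, 3 and 7. Among heavy chain UMIs other than Ighm, Igha took 95.4%, 95% and 84.8% on days 1, 3 and 7. Ighg2c took 0.691% of heavy chain UMIs on day 1, 1.18% on day 3 and 4.60% (3.90 to 5.39) on day 7, and the day 7 interval lay above the others.

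**Figure D2:**
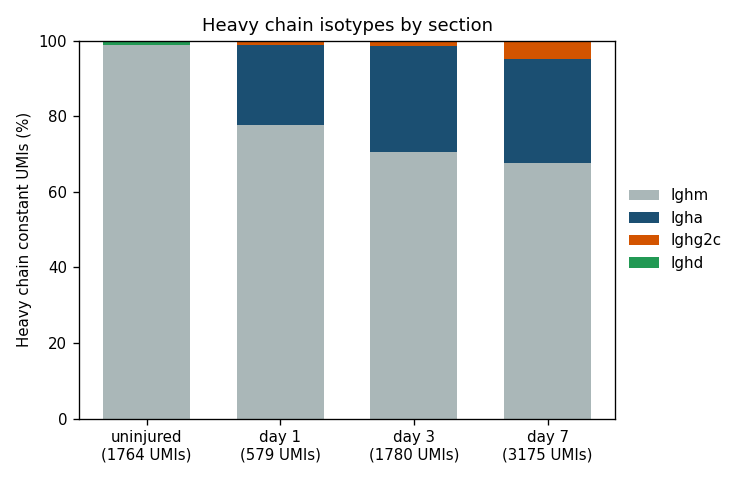
Stacked shares of heavy chain constant UMIs (%) held by Ighm, Igha, Ighg2c and Ighd in each section, with the number of UMIs under each bar. Igha made up 0.0567% on day 0 and 21.4 to 28.0% in the 3 injured sections, and Ighg2c reached 4.60% on day 7.

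For the light chains, Igkc, the single kappa constant gene, had 15 UMIs on day 0, 115 on day 1, 495 on day 3 and 801 on day 7. Its levels were 0.342 CPM (0.191 to 0.564), 6.85 (5.66 to 8.23), 8.82 (8.06 to 9.63) and 19.1 (17.8 to 20.5). Day 0 lay far below the injured sections and day 7 above all others, and the ratios to day 0 were 20.05-fold (11.7 to 37.0), 25.8-fold (15.5 to 46.5) and 56.0-fold (33.7 to 101). Igkc and Igha ran in parallel: 1.08, 1.01 and 1.09 Igha UMIs were counted per Igkc UMI on days 1, 3 and 7, against 1 Igha UMI beside 15 of Igkc on day 0.

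Iglc2, a lambda constant gene, had 0, 13, 5 and 91 UMIs, or 0, 0.775 (0.413 to 1.33), 0.0891 (0.0289 to 0.208) and 2.18 CPM (1.75 to 2.67). It was at least 11.3-fold higher on day 1 and at least 31.8-fold higher on day 7 than the floor of 3 UMIs on day 0. Day 3 was lower than day 1 at a ratio of 0.115 (0.0321 to 0.344), though 6 of the 13 UMIs of day 1 lay in 1 spot. Iglc1 and Iglc3 are near-identical to Iglc2, so the split among the lambda genes is uncertain, and they had 1 to 14 and 2 to 15 UMIs. Lambda genes together held 5 of 20 light chain UMIs on day 0, 18 of 133 on day 1, 21 of 516 on day 3 and 114 of 915 on day 7, or 25.0% (8.66 to 49.1), 13.5%, 4.07% (2.54 to 6.15) and 12.5% (10.4 to 14.8). The lambda share was thus lower on day 3 than on day 7 beyond counting error, though 48 of the 91 Iglc2 UMIs of day 7 lay in 3 spots.

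Variable, diversity and joining segments could not be followed. Of 379 such features, those with any UMI were Ighv5-4 (3 UMIs) and Igkv6-17 (1) on day 3 and Igkv17-121 (1) and Iglv1 (1) on day 7, and none had a UMI on days 0 and 1.

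Light chain UMIs were scarce beside Ighm in uninjured muscle. For each Ighm UMI there were 0.0115 light chain constant UMIs on day 0, 0.296 on day 1, 0.411 on day 3 and 0.426 on day 7. Spots with an Ighm UMI held a light chain UMI about as often as all spots of their section: 7 of 927 on day 0 (0.755%, against 0.759% of all spots), 10 of 362 on day 1 (2.76% against 2.21%), 46 of 894 on day 3 (5.15% against 5.45%) and 119 of 1246 on day 7 (9.55% against 9.14%). The pattern for Igha was another. Igkc was found in 1.91%, 5.02% and 7.68% of all spots on days 1, 3 and 7, but in 13 of 54 spots with an Igha UMI on day 1 (24.1%), in 61 of 126 on day 3 (48.4%) and in 83 of 220 on day 7 (37.7%). Where a spot held at least 2 Igha UMIs, the shares were 6 of 9, 35 of 42 (83.3%) and 48 of 70 (68.6%).

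**Figure D3:**
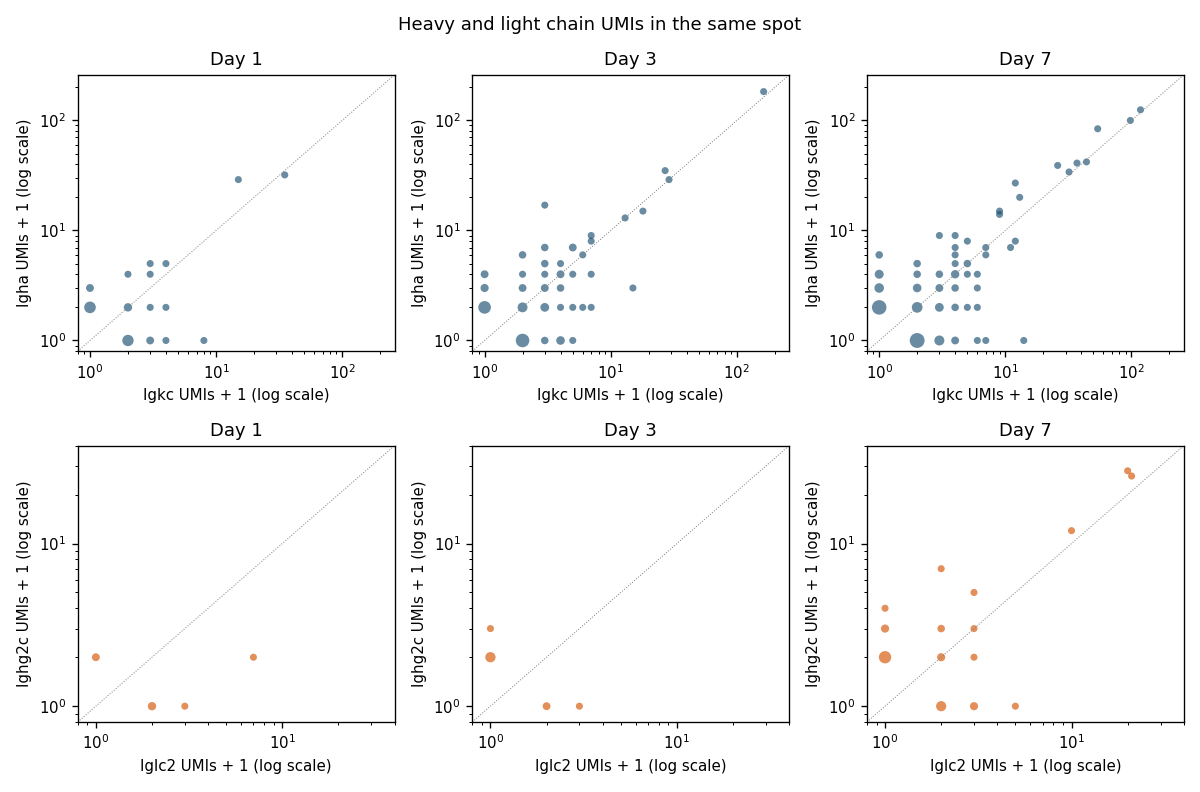
UMIs of a heavy chain against those of a light chain in the same spot (UMIs + 1, log axes) for the injured sections, with Igha against Igkc above and Ighg2c against Iglc2 below. Larger points stand for more spots and the dotted line for equal numbers. The spots richest in Igha were rich in Igkc as well, up to 182 Igha and 162 Igkc UMIs on day 3, and 3 spots of day 7 were rich in both Ighg2c and Iglc2.

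Of the partners of secreted antibody, Jchain had 7, 14, 80 and 113 UMIs, or 0.160 CPM (0.0642 to 0.329), 0.834 (0.456 to 1.40), 1.43 (1.13 to 1.77) and 2.70 (2.23 to 3.25). Each injured section lay above day 0, by 5.23-fold (1.98 to 15.3), 8.94-fold (4.14 to 22.9) and 16.9-fold (7.95 to 43.1). Per Igha UMI there were 0.113, 0.161 and 0.129 Jchain UMIs on days 1, 3 and 7. Mzb1, a chaperone of the endoplasmic reticulum in marginal zone B cells and plasma cells, went the other way. It had 53, 13, 18 and 38 UMIs, or 1.21 CPM (0.905 to 1.58), 0.775 (0.413 to 1.33), 0.321 (0.190 to 0.507) and 0.908 (0.643 to 1.25). Day 3 lay below day 0 at a ratio of 0.266 (0.146 to 0.461), and the intervals of days 1 and 7 overlapped that of day 0.

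Cd79a and Cd79b encode the signalling pair of the B cell receptor. In each injured section their ratios to day 0 were below those of Igha and Igkc, while Ighm was below day 0 by CPM on days 1 and 3. Cd79a had 8, 7, 11 and 19 UMIs, or 0.182 CPM (0.0787 to 0.359), 0.417 (0.168 to 0.860), 0.196 (0.0979 to 0.351) and 0.454 (0.273 to 0.709). The 4 intervals overlapped one another, and of the ratios to day 0, 2.29 (0.706 to 7.22), 1.08 (0.394 to 3.08) and 2.49 (1.04 to 6.58), that of day 7 alone had an interval above 1. Cd79b had 33, 36, 214 and 94 UMIs, or 0.752 CPM (0.518 to 1.06), 2.15 (1.5 to 2.97), 3.81 (3.32 to 4.36) and 2.25 (1.82 to 2.75). Day 3 was highest, at 5.07-fold over day 0 (3.5 to 7.55), and day 7 was below day 3 at a ratio of 0.589 (0.457 to 0.754). From day 3 to day 7, by contrast, Igha, Igkc, Ighg2c, Iglc2, Ighm and Jchain were all higher. The pair moved unequally, with 4.13 Cd79b UMIs per Cd79a UMI on day 0, 5.14 on day 1, 19.5 (10.7 to 39.6) on day 3 and 4.95 on day 7.

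The 5 chains (Ighm, Igha, Ighg2c, Igkc and Iglc2) summed to 1759, 705, 2275 and 4057 UMIs, or 42.9 (31.5 to 60.0), 16.4 (12 to 22.9), 10.1 (8.81 to 11.6) and 35.9 (29.8 to 43.7) per UMI of Cd79a and Cd79b. Most of that sum was Ighm. For the 4 other chains, which summed to 17, 256, 1019 and 1911 UMIs, the ratio to the pair was 0.415 (0.221 to 0.746) on day 0, 5.95 (4.30 to 8.43) on day 1, 4.53 (3.92 to 5.26) on day 3 and 16.9 (14.0 to 20.6) on day 7. The order of the days therefore turned on whether Ighm was included: with it day 0 had the highest ratio, within counting error of day 7, and without it the lowest. Without the 10 spots with the most immunoglobulin UMIs, the ratio for the 4 chains was 3.05, 1.92 and 8.2 on days 1, 3 and 7, still with day 0 lowest and day 7 highest. In CPM the 4 chains were 39.4-fold (day 1), 46.9-fold (day 3) and 118-fold (day 7) over day 0, and the pair 2.74-fold, 4.29-fold and 2.89-fold. The sum of 5 chains was 1.05-fold and 1.01-fold on days 1 and 3, with TMM log2 ratios of -0.14 and -0.53, and 2.42-fold (2.29 to 2.56) on day 7.

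The chains also differed in how they were spread over the tissue. Ighm was found at low numbers in many spots, in 927 of 2107 spots on day 0 (44.0%), 362 on day 1 (13.6%), 894 on day 3 (29.5%) and 1246 on day 7 (41.1%), with at most 11 UMIs in a spot. Igha was found in 1, 54, 126 and 220 spots, with at most 1, 31, 182 and 124 UMIs in a spot. The fewest spots that held 50% of a section's Ighm UMIs were 242, 138, 266 and 331, while 3, 4 and 7 spots held 50% of Igha and 4, 6 and 7 spots 50% of Igkc on days 1, 3 and 7. For Jchain it was 3, 2 and 7 spots, but the 3 spots of day 1 held 7 of 14 UMIs, too few to judge concentration on that day. Of the 5 summed chains, the richest 1% of spots held 8.13% of UMIs on day 0 and 30.1%, 32.8% and 31.8% on days 1, 3 and 7. Cd79b was spread thinly, over 30, 34, 193 and 84 spots with at most 3 UMIs in any.

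**Figure D4:**
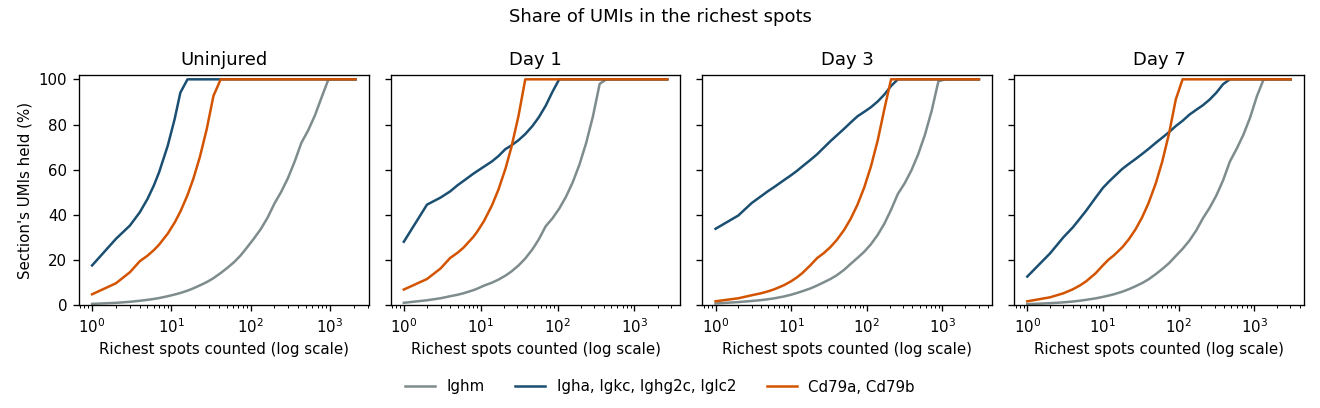
Share of a section's UMIs (%) held by its richest spots, counted from the richest spot on (log axis), for Ighm, for Igha, Igkc, Ighg2c and Iglc2 together, and for Cd79a and Cd79b together. At day 3 the single richest spot held 33.9% of the UMIs of the 4 chains, while Ighm needed 266 spots to reach 50%.

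To set the sections at equal depth, every spot was reduced by random draws to 2000 UMIs, which left out 17, 513, 9 and 84 shallower spots on days 0, 1, 3 and 7. Ighm was then seen in 7.61%, 4.95%, 4.71% and 10.6% of spots, the 4 other chains in 0.0861%, 1.58%, 2.44% and 3.91%, and the Cd79 pair in 0.146%, 0.481%, 0.676% and 0.383%. Muscle fibres do not make antibody, but a spot can hold several cells, so spots rich in myofibre genes can hold B lineage cells too. The 25% of spots richest in adult myofibre genes was set beside the poorest 25%. Ighm was seen in 8.95% of the myofibre-richest spots and 6.06% of the poorest on day 0 (median depths 20668 and 22723 UMIs), and in 15.5% and 5.34% on day 7 (10579 and 14386). In each of the 4 sections its share over all spots was no higher than in the myofibre-richest 25%. Since such spots can hold B lineage cells, the comparison cannot tell Ighm signal from background. The 4 chains were seen in 0.567% and 3.79% on day 1 (8099.5 and 5276.5), in 5.02% and 0.325% on day 3 (9910 and 25396), and in 3.85% and 3.07% on day 7. Cd79b was lower in the myofibre-richest 25% of each injured section, at 0.177% against 1.04%, 0.444% against 1.08%, and 0.0746% against 0.502%. The share of the 4 chains over all spots was below the myofibre-richest 25% on day 3 and within counting error of it on day 7, while on day 1 it was above. RNA free in the tissue can give UMIs in spots without expressing cells, and its part in these shares was not tested.

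Spots with at least 10 UMIs of Igha, Igkc, Ighg2c and Iglc2, a limit chosen after these values were seen, numbered 0, 2, 13 and 22 on days 0, 1, 3 and 7. The spots next to the limit had 42 and 8 UMIs on day 1, 10 and 9 on day 3, and 10 and 9 on day 7, and the highest spot on day 0 had 3. These few spots held 114 of 256 UMIs of the 4 chains on day 1 (44.5%), 617 of 1019 on day 3 (60.6%) and 1196 of 1911 on day 7 (62.6%). The limit selects on the chains themselves, so only genes outside the sum bear on what else these spots held. Jchain had a UMI in 2 of 2, 8 of 13 (61.5%) and 17 of 22 (77.3%) of them, against 0.300%, 0.862% and 1.16% of the remaining spots. Their median depths were 7124, 8732 and 21160 UMIs, beside 6322, 16098.5 and 12049 in the remaining spots. They were thus deeper on days 1 and 7 and shallower on day 3, and the part of depth in the Jchain shares was not tested.

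Cd79a had 0 UMIs in all of these spots, but it was seen in no more than 0.631% of the remaining spots of an injured section, so few spots could show it. Cd79b was seen in 1 of 2 (against 1.24% of the remaining spots), 1 of 13 (7.69%, against 6.37% of the remaining spots) and 2 of 22 (9.09% against 2.72%). Mzb1 was seen in 1 of 2 (against 0.375%), 0 of 13 (0.597%) and 2 of 22 (9.09% against 1.16%). Ighm was seen in 0 of 2, 2 of 13 (15.4% against 29.6%) and 11 of 22 (50% against 41.0%), shares whose exact intervals are wide at these numbers. Tnfrsf17, a survival receptor of plasma cells, had 0 UMIs there, as far as its few UMIs could show.

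Single spots differed in the chains they held. At day 3 the richest spot had 182 Igha, 162 Igkc and 31 Jchain UMIs, and the 345 UMIs of the 4 chains were 4.71% of its 7332 UMIs. It held 36.5% of all Igha UMIs of that section. At day 7 the 3 richest spots had 243, 196 and 136 UMIs of the 4 chains, again mostly of Igha and Igkc, with 124 and 117 in the first. All 15 rich spots of days 1 and 3, and 18 of 22 on day 7, had more Igha than Ighg2c.

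The other 4 rich spots of day 7 had more Ighg2c than Igha, and in 3 of these the light chain was lambda. Those 3 held 25, 27 and 11 Ighg2c UMIs with 20, 19 and 9 Iglc2 UMIs, and 2, 1 and 2 Jchain UMIs, and over all 3 there were 1 Igha UMI and 1 Igkc UMI. They carried 63 of 146 Ighg2c UMIs (43.2%) and 48 of 91 Iglc2 UMIs (52.7%) of the section. The fourth had 6 Ighg2c and 13 Igkc UMIs and no Igha. In the 18 spots led by Igha there were 1 Ighg2c and 2 Iglc2 UMIs in all. Because the spots were sorted by leading heavy chain, few UMIs of the other heavy chain are in part given by the sorting. Over all spots of day 7, Igha shared 17 spots with Ighg2c, where the product of their shares of spots gives 5.01. With Iglc2 it shared 12, where the product gives 2.61. The part of depth in these numbers was not tested.

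Regions were set by marker genes of other cell types: within a section, the 10% of spots with the highest share of a list was compared with the remaining spots. At day 7 the 4 chains were 5.29-fold higher (4.83 to 5.79) in the 10% of spots richest in regenerating muscle genes (Myog, Myh3 and Myh8 among them), where 1026 of the 1911 UMIs lay in 303 spots. Without the 10 spots with the most immunoglobulin UMIs the ratio was 3.77. The median depth there was 23517 UMIs against 11444 elsewhere, and 12 of the 22 rich spots were among them. Jchain was 5.96-fold higher there (4.04 to 8.83) and Cd79b 2.83-fold (1.81 to 4.37), while Ighm was lower, at 0.526 (0.456 to 0.605).

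At day 3 the 4 chains showed the reverse for the same list, at a ratio of 0.106 (0.0644 to 0.164), or 0.257 without the 10 richest spots, and 0 of 13 rich spots lay in the richest 10% for regenerating muscle or for macrophage genes. In spots rich in macrophage genes (Cd68, Adgre1, C1qa) the 4 chains were at 0.150 on day 3, or 0.366 without the 10 richest spots, and at 1.2 (1.06 to 1.35) on day 7. In spots rich in adult myofibre genes they were at 1.1 (0.828 to 1.43) on day 3, but 2.83 without the 10 richest spots, and at 0.176 on day 7, but 1.06 when the richest 25% of spots was taken in place of 10%.

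Ighm differed from the 4 chains in its surroundings on day 7, whereas Cd79b, like them, was higher in spots rich in regenerating muscle genes. At day 7 Ighm was 1.98-fold higher (1.75 to 2.24) in the 10% of spots richest in adipocyte genes (Adipoq, Plin1) and 1.40-fold (1.22 to 1.59) in that of adult myofibre genes, where it was 1.75-fold with the richest 25% of spots. At day 3 it was 2.17-fold higher (1.80 to 2.60) in spots rich in adult myofibre genes and 1.66-fold (1.45 to 1.89) in those rich in macrophage genes. On day 1 it was 3.30-fold higher in the latter. Over spots, the Pearson r of Ighm with the macrophage genes was 0.091, 0.030 and -0.138 on days 1, 3 and 7, so the direction changed on day 7. With the adult myofibre genes it was 0.024, -0.040 and 0.194, so over all spots of day 3 it did not go with the 2.17-fold ratio. Cd79b was higher in macrophage-rich spots of every injured section, by 6.00-fold (2.36 to 13.5) on day 1, 2.19-fold (1.60 to 2.97) on day 3 and 2.82-fold (1.77 to 4.41) on day 7. The 10 macrophage genes themselves ran at 408, 1625.3, 8731.4 and 2095.1 CPM on days 0, 1, 3 and 7, highest on day 3 as Cd79b was, and their part in the Cd79b values was not tested.

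**Figure D5:**
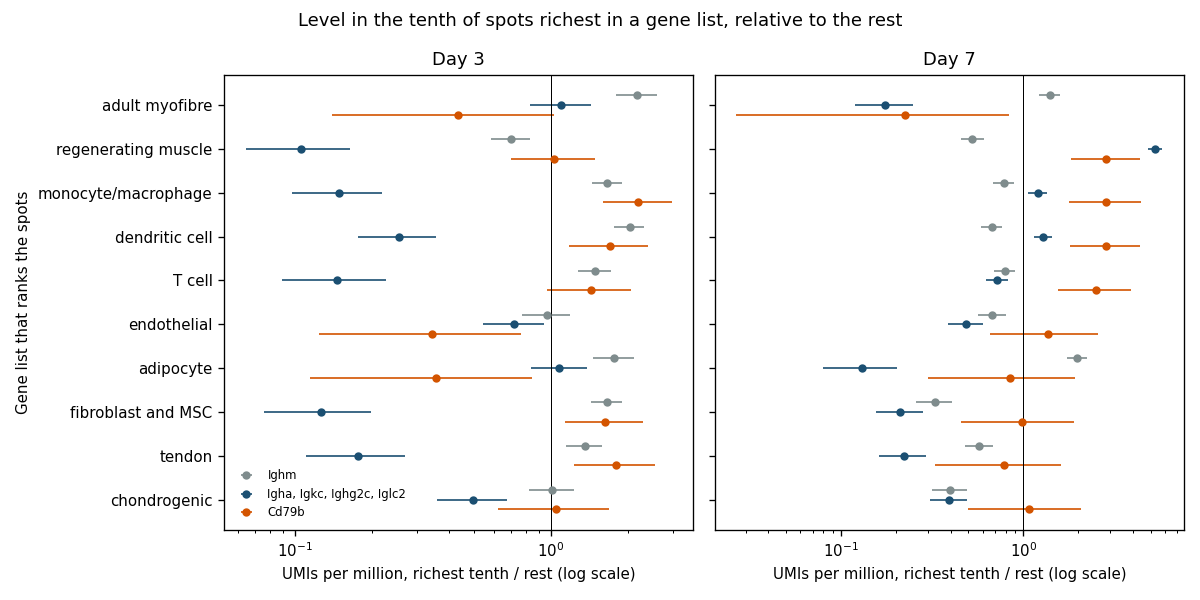
Ratio of CPM in the 10% of spots richest in a marker list to the remaining spots (log axis), for Ighm, for Igha, Igkc, Ighg2c and Iglc2 together, and for Cd79b, with exact 95% intervals as bars and the line at a ratio of 1. The 4 chains stood at 5.29 for regenerating muscle on day 7 and 0.106 on day 3, and Cd79b above 2 for macrophage genes at both days.

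Across spots, the genes whose log counts were most like those of the 5 summed chains had Pearson r of at most 0.21. They were Mybpc2, Actc1, Tpm1, Mylpf and Pkm over the 2107 spots of day 0, Tyrobp, Tnfaip8l2, Ccr2, Ccl6 and Mpeg1 over 2667 spots of day 1, Apod, Ubb, Osgin1, Cd209f and Gpam over 3029 spots of day 3, and Myl1, Aldoa, Tnnc2, Mylpf and mt-Nd1 over 3032 spots of day 7. Spots of a section share a library and its spread of depths, and correlations this weak in sparse counts are given for completeness.

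Other genes of B cells were rare. Ms4a1, the gene of CD20, had 1, 2, 1 and 4 UMIs on days 0, 1, 3 and 7, and Pax5, the factor that holds B cell identity, had 0, 0, 1 and 1. Of the 14 genes tested of an 18 gene B cell list, 4, 6 and 9 were higher than day 0 on days 1, 3 and 7 (beside 17.3%, 31.9% and 32.0% of all genes), and 2, 1 and 0 were lower (beside 9.93%, 8.53% and 2.13%). The median log2 ratio of these 14 was 1.39, 0.55 and 1.26, and on day 3 it was at the 0.55 of all genes. The 1.39 of day 1 is also what 3 UMIs in both sections give, because the day 1 total was lower. Those with many UMIs were genes that other cells use as well, such as Ebf1 (580, 140, 609 and 1301 UMIs), a factor also of adipocyte and stromal cells, and Blnk (82, 94, 1105 and 309) and Cd72 (20, 27, 797 and 250), an adaptor and an inhibitory receptor of B cells.

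Genes of the B cell receptor pathway were higher in 12 of 16 cases on day 1, 12 on day 3 and 13 on day 7, and lower in 1, 0 and 0. Over all genes 17.3%, 31.9% and 32.0% were higher, and 9.93%, 8.53% and 2.13% were lower. The median log2 ratio of the pathway was 1.60, 3.14 and 1.79, beside 0.27, 0.55 and 0.64 over all genes. The kinases Lyn (436, 377, 3001 and 837 UMIs), Syk (209, 244, 2169 and 717) and Btk (16, 76, 440 and 91) and the inhibitory receptor Cd22 (0, 20, 277 and 106) had most UMIs on day 3, as the macrophage list did. In the 10% of spots richest in macrophage genes, Cd22, Blnk, Cd72, Tnfrsf13b and Btk were 3.06, 3.26, 3.20, 3.22 and 3.33 times as high as elsewhere on day 3, and 5.74, 3.84, 4.89, 3.14 and 3.42 times on day 7. Some genes with fewer UMIs were higher there on day 7 too. Cd79a was at 3.35 (1.12 to 9.22), Spib at 5.74 and Fcrla at 3.97, with each interval above 1. The day 7 intervals of Tnfrsf13c (2.68), Ighd (1.43), Tnfrsf17 (1.32) and Derl3 (2.46) included 1. On day 3 the interval of Fcrla (2.39) lay above 1. Those of Cd79a (3.14), Spib (1.83), Tnfrsf17 (0.4997) and Derl3 (0.785) included 1 on day 3. Whether macrophages were the source of the UMIs of any of these genes was not tested.

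Of 15 genes known from plasma cells, 7, 9 and 10 were higher on days 1, 3 and 7 (beside 17.3%, 31.9% and 32.0% of all genes) and 1, 1 and 0 lower (beside 9.93%, 8.53% and 2.13%). Their median log2 ratio was 1.03, 1.24 and 1.26. Derl3, of protein quality control in secretory cells, had 0, 13, 24 and 30 UMIs, and Pou2af1, a coactivator of B cells, 0, 0, 6 and 5. The factor Irf4 was at 3.24, 2.68, 1.53 and 4.49 CPM and Tnfrsf17 at 7, 2, 12 and 16 UMIs. Xbp1, Txndc5 and Edem1, of protein folding and secretion in many cells, had at least 611 UMIs in each section, uninjured muscle included.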

How the data were processed

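Raw UMI counts for every gene in every spot were deposited by the authors for 4 sections, and every value was a whole number. The headers of the count tables name spaceranger 1.2.0, the submitters' processing notes name Space Ranger and build mm10, and the labels name Cell Ranger with the STAR aligner, so the software behind the tables is not settled. The protocol text of the labels mentions down-sampling where required, and whether it was applied here is not given. Counts stand per transcript captured near its 3′ end and were not divided by length. All 10835 deposited spots were used. Barcodes mark array positions and recur between sections (1539 to 2311 in each of the 6 pairs), and the sections were treated as separate. Of the labels, only the day grouped the samples.

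Counts were summed over a section and scaled to CPM. Folds were taken for the 17250 genes whose UMIs reached 10 in all sections together, with 3 UMIs as the floor. Thinning to 2000 UMIs was the mean of 20 random draws. Intervals were exact at 95%, and PCR copies were already removed by the UMIs. Computation used Python 3.11.15, numpy 2.4.6, scipy 1.17.1 and pandas 2.3.3, with scaling factors from edgeR 4.0.16 and DESeq2 1.42.0 in R 4.3.3. No count model was fitted, and the interval and thinning code was tested on simulated data. With 1 section per day nothing measures the spread between animals.

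Genes named were the 9 members, genes of the marker lists, the variable segments with most UMIs and, per section, the 5 genes most correlated with the summed chains. Lists held 182 symbols, of which 181 were among the features. Members and lists were chosen with earlier results of these data known. The sum without Ighm, the limit of 10 UMIs for rich spots, the setting without the single richest spot and the motifs were chosen after the values were seen. Other settings tried were TMM and DESeq2 factors, a total without mitochondrial, haemoglobin and adult myofibre genes, leaving out 10 spots, other thinning depths, the richest 25% of spots and a minimum of 50 UMIs. Spot positions and images were not used here.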

Additional observations from a re-analysis of the deposited data

How the results depend on the processing

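With 1 section per day no replicate could be left out. No paired analysis was possible because there was 1 section per day. Among the values treated as main results, 89 recomputed under another setting stayed within counting error or, for counts of genes, within 1.5 times, and 70 moved further. Settings such as the richest 5% of spots or another depth per spot move a value by construction, so such counts do not measure robustness. Among the other values, 410 stayed, 144 moved and 3 changed direction from an interval clear of no change. Those 3 were the Ighm ratio of day 7, with log2 of -0.24 (TMM) and -0.27 (DESeq2), and the 4 chains without Ighm in adult myofibre spots on day 7, with 1.06 for the richest 25% of spots. Ratios already within counting error of no change, or set against the floor, also changed sign, among them Cd79a on day 3 (-0.44 with TMM), Iglc2 on day 3 (-0.17 with TMM) and the 5 summed chains on days 1 and 3. The cause was not tested for these or the values below, beyond the setting's own construction.

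The log2 ratio of the 5 summed chains was -0.14, -0.53 and 0.67 on days 1, 3 and 7 with TMM, -0.13, -0.54 and 0.64 with DESeq2, and -0.11, -0.40 and 0.99 when mitochondrial, haemoglobin and adult myofibre genes were left out of the total. Without the 10 spots with the most immunoglobulin UMIs it was -0.24, -0.36 and 0.93, and without the single richest spot -0.08 and -0.21 on days 1 and 3. The 4 chains without Ighm, an added setting, had 4.12, 4.30 and 5.82 without the 10 spots. Cd79a and Cd79b together had 1.55 (TMM) and 1.54 (DESeq2) on day 3, and 0.92 and 0.90 on day 7.

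The 5 chains per UMI of the Cd79 pair became 0.415, 5.95, 4.53 and 16.9 on days 0, 1, 3 and 7 when Ighm was not counted, and 7.49 and 27.3 on days 3 and 7 without the 10 spots. The same omission gave 3.05, 1.92 and 8.2 on days 1, 3 and 7 for the chains without Ighm. It gave an Igha share of heavy chain UMIs of 11%, 12.9% and 14.8%, and a lambda share of 8.40% on day 3 and 15.1% on day 7. Counted by the spots in which it led the heavy chains, Igha held 0%, 11.7%, 10.6% and 10.3% on days 0, 1, 3 and 7. The richest 1% of spots held 8.13%, 30.1%, 32.8% and 31.8% of the UMIs of the 5 chains, and after thinning to 2000 UMIs 19.1%, 42.8%, 56.0% and 26.7%, while the richest 5% held 28.5%, 55.7%, 50.8% and 47.9%. Spots with any of the 5 chains made up 7.68%, 6.53%, 6.93% and 14.2% at 2000 UMIs a spot, 4.03%, 4.04%, 3.81% and 7.68% at 1000, 14.2%, 10.7%, 12% and 24.0% at 4000, and 44.4%, 16.7%, 35.3% and 49.1% with all UMIs. These shares moved with the depth per spot.

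For Ighm in adult myofibre spots on day 7 the ratio was 1.75 with the richest 25% of spots and 1.70 with the reduced total. For the 4 chains in regenerating muscle spots it was 3.82 with the richest 25%, 4.79 with the reduced total and 3.77 without the 10 spots. Genes past 2-fold higher numbered 3227 (TMM) and 3183 (DESeq2) on day 3 and 2543 and 2485 on day 7, and genes past 2-fold lower 2878 and 2902 on day 3 and 1157 and 1216 on day 7, or 219 on day 7 with at least 50 UMIs. Depth limited the precision for genes with few UMIs, such as Cd79a with 7 to 19 in a section.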

Other observations

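Of 8 tested Fc and antibody receptor genes, 5, 6 and 8 were past 2-fold higher than day 0 on days 1, 3 and 7, beside 17.3%, 31.9% and 32.0% of all genes. Past 2-fold lower were 1, 0 and 0, beside 9.93%, 8.53% and 2.13% of all genes. Their median log2 ratios were 1.88, 4.33 and 1.99, beside 0.27, 0.55 and 0.64 over all genes. Fcer1g, the shared signalling chain of Fc receptors, was at 21.4, 215, 586 and 95.6 CPM on days 0, 1, 3 and 7. Fcgr1, the high-affinity receptor for IgG, was at 1.98, 54.2, 86.1 and 14.3 CPM. Both were highest on day 3, as the macrophage genes were. Fcgrt, of the neonatal receptor that recycles IgG, was at 72.9, 34.3, 110 and 160 CPM, lowest on day 1 and highest on day 7. Pigr, which carries IgA and IgM across epithelia, had 0 UMIs in every section.

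Of 9 tested genes of signals that hold or draw B lineage cells, 4, 7 and 7 were past 2-fold higher on days 1, 3 and 7, beside the same shares of all genes. On each day 0 were past 2-fold lower, beside 9.93%, 8.53% and 2.13% of all genes. The summed level of the list was 109, 83.1, 215 and 289 CPM on days 0, 1, 3 and 7, lower on day 1 than on day 0. Tnfsf13b, the gene of the survival factor BAFF, was at 0.593, 0.894, 1.78 and 3.44 CPM, and Cxcl13, a chemokine for B cells, had 7, 12, 63 and 81 UMIs. Ccl21a, a chemokine of lymphatic vessels and lymph nodes, was at 6.88, 4.23, 25.6 and 101 CPM. All 3 were highest on day 7. Of T cell genes, 2, 8 and 8 of 8 were past 2-fold higher and 1, 0 and 0 lower, against the same shares of all genes, and the 8 genes summed to 55, 19, 517 and 414 UMIs.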
